A study of Mus musculus with 4 samples.

Results

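Hyaluronan is a long, unbranched sugar polymer that fills the space between cells. Enzymes of the Has family spin it out through the plasma membrane from UDP-glucuronic acid and UDP-N-acetylglucosamine. Outside the cell it is held by receptors such as Cd44 and by the proteoglycan Vcan, which link proteins such as Hapln1 lock onto the chain. It is cut by hyaluronidases such as Hyal2 and by Cemip. Tumour stroma is often rich in it, and fibroblasts are a main source. The 7 genes described here were chosen by name for these roles, with earlier results of these data known. They were the makers Has1 and Has2, the binders Cd44, Hapln1 and Vcan, and the degraders Hyal2 and 9930013L23Rik, the older symbol of Cemip. They are 7 of 16305 genes with a row in the data. RNA was read, and hyaluronan itself was not measured.

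The cells were sorted, 1 to a well, as cancer-associated fibroblasts. They came from 4 untreated orthotopic tumours of the kind labelled APTKA, carried in the colon by C57BL6J mice, all female. The labels spell out neither the alleles behind that name nor the age of the mice, the gate of the sort or whether the tumours came from separate mice. The p-values therefore measure only how the differences between groups of wells vary over the tested tumours. There was 1 group and 1 plate of 384 wells per tumour (SORT-seq, in which mRNA molecules are counted at their 3′ ends by unique molecular identifiers, UMIs). Every comparison is therefore between groups of wells within the same tumours.

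The filters kept 740 of 1536 wells, which were 43, 250, 243 and 204 wells in tumours 1 to 4. Tumour 1 stood apart before any gene was considered: it was the poorest plate, with 44.0% spike-in RNA against 5.54 to 8.59% in the others, and its kept wells had a median mitochondrial share of 14.4% against 5.25 to 6.14%. The deposited file of tumour 1 also names a different sequencing run, so run and tumour cannot be told apart. By marker lists of other cell types, 116 of the 740 wells went to other cells, mostly mural (71 wells) and red cell (25 wells). The 624 wells left were taken as fibroblasts. At least 3 fibroblast markers were asked of them, but all 740 kept wells had these, so this removed no well. The 12 fibroblast markers were found in a median of 97.0% of wells. The 11 immune markers together had 79 UMIs and the 9 epithelial markers 88 UMIs in all kept wells.

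Wells were grouped by marker lists that held none of the 7 genes. The groups were inflammatory (97 wells; Il6, Cxcl1 and other cytokine genes), progenitor (130 wells; Pi16, Dpp4, Cd34), contractile (75 wells; Acta2, Tagln, Postn), telocyte (64 wells; Foxl1, Bmp7, Wnt5a) and lamina propria (92 wells; Adamdec1, Wnt4, Tcf21). A further 166 fibroblast wells led on no list. Their summed red cell markers were at 93.7 to 236 per 10000 against 1.66 to 13.7 in the other groups, and 15 of the 166 wells held 97.9% of that sum; its part in the levels of this group was not tested. The 71 mural wells carried markers of smooth muscle or pericytes. The groups are ranges of a score, not cell types: of 458 wells that led on a list, 238 also passed the threshold on a second one, and 38 fibroblast wells lay within 0.05 of it. A second list was passed by 55 telocyte, 61 lamina propria, 58 inflammatory, 47 progenitor and 17 contractile wells, so the telocyte group was the least distinct. Its contractile markers summed to 85.5 to 111 per 10000, against 117 to 138 in contractile wells. Its lamina propria markers were at 25.8 to 36.1, against 28.3 to 56.2 in lamina propria wells. Depth differed too, with median transcripts per well of 9423 to 12564 in the groups with a leading list, 5555 in wells with none and 6202 in mural wells. Levels below are transcripts per 10000 transcripts of the group. The sums of tumours 2, 3 and 4 entered the tests, since no group of tumour 1 reached 10 wells.

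To show the region from which each of the most group-restricted members and the neighbours Hapln1 and Vcan are read, the 250 bases before the RefSeq start of 4 genes are given, 5′ to 3′ on the gene's strand, on GRCm38.p6. Starts in this paragraph are those of RefSeq, and the GENCODE M21 annotation used further below can differ. By GENCODE M21, Hapln1 starts at chr13:89539796, so its window lies within that gene and not before it. The windows are chr17:17855189-17855438 on the minus strand for Has1, chr7:84086506-84086755 on the minus strand for 9930013L23Rik (Cemip), chr13:89540386-89540635 on the plus strand for Hapln1 and chr13:89742513-89742762 on the minus strand for Vcan. Capitals mark a match to 1 of 3 motifs searched on both strands.
Has1: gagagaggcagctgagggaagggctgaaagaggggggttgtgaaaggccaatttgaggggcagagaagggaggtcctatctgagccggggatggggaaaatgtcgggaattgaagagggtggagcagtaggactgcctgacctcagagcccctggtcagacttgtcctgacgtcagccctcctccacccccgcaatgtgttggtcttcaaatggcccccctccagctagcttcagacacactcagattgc
9930013L23Rik: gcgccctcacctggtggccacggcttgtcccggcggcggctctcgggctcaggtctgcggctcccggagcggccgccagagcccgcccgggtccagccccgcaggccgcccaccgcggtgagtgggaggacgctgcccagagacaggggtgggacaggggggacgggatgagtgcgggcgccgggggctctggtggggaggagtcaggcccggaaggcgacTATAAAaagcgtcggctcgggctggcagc
Hapln1: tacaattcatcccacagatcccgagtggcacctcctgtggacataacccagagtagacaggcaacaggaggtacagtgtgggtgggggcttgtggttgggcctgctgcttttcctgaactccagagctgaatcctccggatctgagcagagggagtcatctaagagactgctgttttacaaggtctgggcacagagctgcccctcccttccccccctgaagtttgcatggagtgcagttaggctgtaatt
Vcan: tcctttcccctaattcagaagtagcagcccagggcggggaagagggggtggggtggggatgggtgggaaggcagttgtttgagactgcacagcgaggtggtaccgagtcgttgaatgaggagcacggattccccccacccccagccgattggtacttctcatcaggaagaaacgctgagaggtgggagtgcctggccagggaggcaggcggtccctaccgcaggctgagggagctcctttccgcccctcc
The motifs were the AP-1 site TGANTCA, found in 6.75% of 32851 promoters of this length, the TATA box TATAAA (12.4%) and the NF-kB site (3.90%). The only match in these 4 windows was a TATA box 29 bases before the start of Cemip. That window was also the richest of the 4 in G and C, at 75.2% against 54.4 to 62.4%. Of the other members with an entry, Hyal2 had 1 match to the NF-kB site, 238 bases before its RefSeq start, and Cd44 had none. By GENCODE M21 Hyal2 starts further upstream, so this match lies within that gene. A match is a run of letters and says nothing of binding.

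The members differed in how widely they were found. Vcan was read in 480 of 740 wells (3502 UMIs) and Cd44 in 445 (3032 UMIs), so both were spread over most of the sort. Has1 was read in 232 wells (2406 UMIs) and Has2 in 169 wells with far fewer UMIs (463). Cemip was the most concentrated of the abundant members: 699 UMIs lay in 90 wells, and the 37 highest wells held 91.0% of them, against 32.6% for Vcan. A single well carried 97 of these UMIs. Hapln1 (156 UMIs in 62 wells) and Hyal2 (98 UMIs in 80 wells) were rare, and 64 of the 80 wells with Hyal2 had 1 UMI. Hyal2 did not pass the filter on low counts, so 6 of the 7 members were tested.

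**Figure D1:**
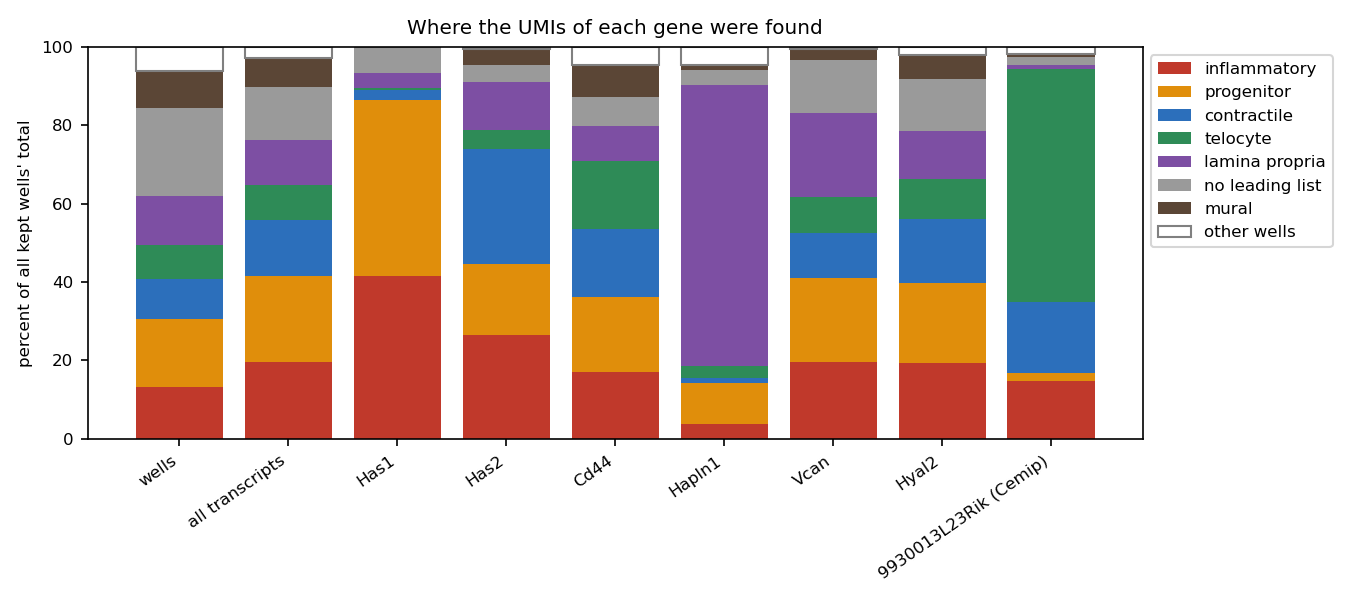
Share of the kept wells, of all transcripts and of each member's UMIs that fell in each marker group (740 wells of 4 tumours, percent). The inflammatory and progenitor groups held 41.5% and 45.0% of Has1 UMIs, the lamina propria group 71.8% of Hapln1 UMIs and the telocyte group 59.4% of Cemip UMIs, whereas Vcan and Hyal2 followed the share of all transcripts more closely.

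Has1, one of the membrane synthases, was high in the inflammatory and progenitor wells and low elsewhere. Its level was 6.66, 4.15 and 6.12 in the inflammatory wells of tumours 2, 3 and 4 and 6.21, 5.21 and 5.70 in the progenitor wells. The contractile wells were at 0.559, 0.217 and 0.553, the telocyte wells at 0.0989, 0.266 and 0, and the mural wells at 0.184, 0 and 0 (11 UMIs in all telocyte wells, 4 in all mural wells). In each of the 3 tumours the inflammatory and progenitor groups were the pair at the top, and their ranges overlapped with each other but with no other group. Lamina propria wells (0.341 to 1.83) and wells with no leading list (0.572 to 1.98) overlapped with each other, and the lower end of the lamina propria wells overlapped with the contractile wells.

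By edgeR's quasi-likelihood test with Benjamini-Hochberg adjustment over 7232 genes, Has1 was higher in the inflammatory wells than in the mean of the other fibroblast groups by 2.80 ± 0.25 on the log2 scale (SE; adjusted p = 2.48e-07). It was the 1 member of 6 tested that was called there, where 4.62% of all genes were called; with no filter on low counts Has2 and Cemip were called as well (adjusted p = 0.0212 and 0.0138). In the progenitor wells it was higher by 2.82 ± 0.25 (adjusted p = 9.49e-08), in a comparison that called 9.76% of genes. The means were 5.64 ± 1.32 and 5.70 ± 0.502 (SD, n = 3 tumours). Has1 was lower in telocyte wells, with a log2 fold change of -3.59 ± 0.51 (adjusted p = 3e-05; 11.1% of genes called), and in mural wells, with -4.26 ± 0.66 (adjusted p = 5.58e-05; 14.7% called). In contractile wells the log2 fold change was -1.72 ± 0.39 (adjusted p = 0.00444; 12.2% called). That last call was lost without tumour 2 (adjusted p = 0.0532) or tumour 3 (0.104). No lamina propria difference was called for Has1 (-0.46 ± 0.35, adjusted p = 0.536).

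Wells that passed both the inflammatory and the progenitor threshold had the most Has1. Their level was 10.7, 6.50 and 8.78 in tumours 2, 3 and 4, with a UMI in 56 of 70 wells (80.0%). Wells with the progenitor markers alone were at 4.16, 2.95 and 4.42, and those with the inflammatory markers alone at 3.25, 0.953 and 2.28. Fibroblast wells with neither were at 1.08, 0.417 and 0.931. The order was the same in each of the 3 tumours, and the wells with both sets were also the deepest, with a median of 16406 UMIs per well against 6837 to 11704.5 in the other 3 classes. Tnfaip6, whose product crosslinks hyaluronan by moving protein chains onto it, was highest in the wells with both sets as well, at 19.7, 10.2 and 18.

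**Figure D2:**
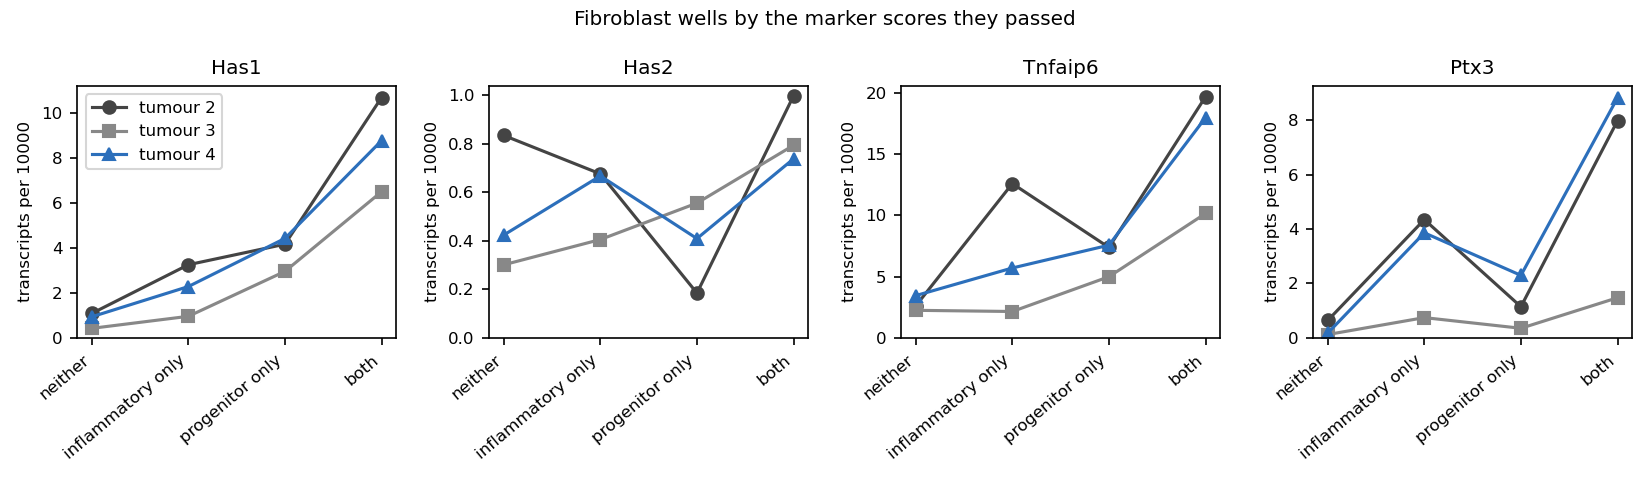
Transcripts per 10000 of Has1, Has2, Tnfaip6 and Ptx3 in fibroblast wells that passed neither, 1 or both of the inflammatory and progenitor thresholds (each line joins the values of 1 tumour). Has1 was at most 1.08 in wells with neither and at least 6.50 in wells with both, and Has2 too was highest in wells with both, at 0.997, 0.793 and 0.737, with no common order of the other 3 classes.

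Has2, the synthase best known from development, was lower and flatter. By the mean of the 3 tumours it was highest in the contractile wells, at 1.33, 0.823 and 0.727 in tumours 2, 3 and 4, followed by the inflammatory wells at 0.840, 0.386 and 0.811, which were the higher of the pair in tumour 4. Lamina propria wells were at 0.380, 0.793 and 0.340. Progenitor wells were at 0.376, 0.509 and 0.477, and wells with no leading list at 0.251, 0.0714 and 0.196. The contractile wells overlapped with the inflammatory and lamina propria wells and lay above the progenitor and telocyte wells in all 3 tumours. Has2 was higher in contractile wells by 1.27 ± 0.30 (log2 ± SE, adjusted p = 0.00709 by edgeR), and this call was lost without tumour 2 (adjusted p = 0.211). Within single tumours its level in contractile wells was 2.79-fold that of all other fibroblast wells in tumour 2 (95% counting interval 2.08 to 3.72), 1.93-fold in tumour 3 (1.12 to 3.19) and 1.5-fold in tumour 4 (0.957 to 2.30). Counting intervals here and below cover counting error only.

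The balance of both synthases thus differed between groups. Of Has1 and Has2 UMIs together, Has1 made up 89.1% in inflammatory wells (95% Clopper-Pearson interval 87.1 to 90.9, 1120 UMIs), 92.7% in progenitor wells (91.1 to 94.1) and 88.5% in wells with no leading list (82.8 to 92.8). In contractile wells it made up 32.0% (25.6 to 38.9, 200 UMIs), and the share was 29.6, 20.8 and 43.1% in tumours 2, 3 and 4. In telocyte wells it was 33.3%, from 33 UMIs only (17.96 to 51.8). Has1 was thus the larger part in the inflammatory and progenitor wells of each of the 3 tumours, and Has2 in the contractile wells of each. The contractile wells also differed in the summed level of 14 genes of dissociation stress such as Fos and Jun, at 53.0 to 113 per 10000 against 130.0 to 221 in inflammatory and 137 to 181 in progenitor wells. Whether this plays a part in the Has1 and Has2 values was not tested.

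**Figure D3:**
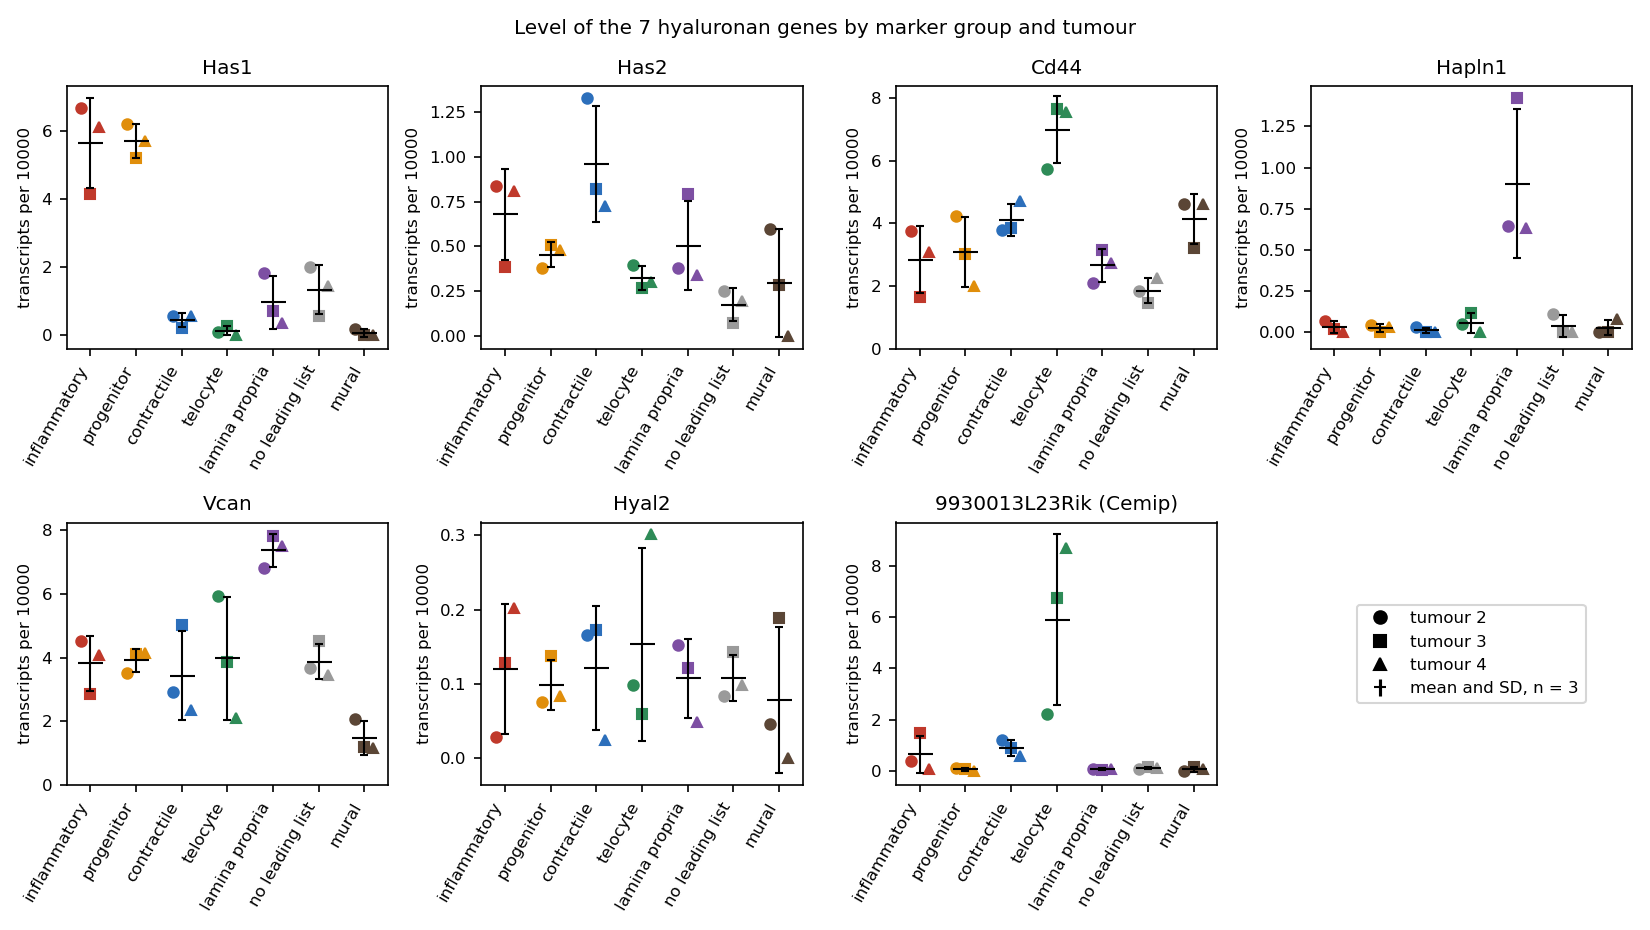
Level of each member (transcripts per 10000, linear axes that differ between panels) in 7 marker groups of tumours 2, 3 and 4 (symbols), with the mean and SD of the 3 tumours. Has1 was above 4 in the inflammatory and progenitor groups and below 2 elsewhere, Hapln1 was above 0.6 in the lamina propria group alone, and Cemip was above 2 in the telocyte group alone.

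Cd44, the main cell-surface receptor for hyaluronan, was found in every group with at least 10 wells per tumour and was highest in telocyte wells. It stood at 5.75, 7.65 and 7.54 in the telocyte wells of tumours 2, 3 and 4. By the mean, the mural wells followed at 4.61, 3.22 and 4.60 and the contractile wells at 3.78, 3.86 and 4.70. Wells with no leading list had the lowest mean, at 1.84, 1.45 and 2.26, although the progenitor wells of tumour 4 were lower at 1.99. The telocyte wells overlapped with none of the other 6 groups. The difference from the other fibroblast groups was 1.19 ± 0.20 on the log2 scale (adjusted p = 0.000211 by edgeR), and a Cd44 UMI was found in 58 of 64 telocyte wells. In the 12 wells with markers of the interstitial cells of Cajal, too few to be tested, Cd44 stood at 10.5. No other comparison called Cd44, and the differences were between -0.38 and 0.36 on the log2 scale.

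Hapln1 encodes a link protein that pins proteoglycans to hyaluronan, and it was nearly restricted to the lamina propria wells. Its level there was 0.646, 1.42 and 0.632 in tumours 2, 3 and 4, from 17, 70 and 13 UMIs. In each other fibroblast group it was at most 0.118 in any of these tumours. Hapln1 in lamina propria wells was 10.5-fold that of all other fibroblast wells in tumour 2 (95% counting interval 4.94 to 22.6), 55.8-fold in tumour 3 (22.8 to 177) and 68.9-fold in tumour 4 (15.6 to 629). The groups did not overlap in any tumour, although the size of the ratio varied and rested on 2 UMIs outside the group in tumour 4. In the test over all groups Hapln1 was higher by 4.73 ± 0.52 (log2 ± SE, adjusted p = 1.73e-06 by edgeR), in a comparison that called 6.75% of genes. Tumour 1 entered no test, but 12 of its 26 Hapln1 UMIs lay in its 6 lamina propria wells and 11 in its 8 progenitor wells.

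Vcan encodes versican, a large proteoglycan that binds hyaluronan, and it was also highest in the lamina propria wells, by a smaller margin. It stood at 6.81, 7.82 and 7.51 there, against 3.51 to 4.13 in progenitor wells and 2.86 to 4.54 in inflammatory wells. Contractile wells (2.36 to 5.04) and telocyte wells (2.11 to 5.95) varied more between tumours. The lamina propria wells lay above every other group in all 3 tumours. The difference was 0.92 ± 0.19 (log2 ± SE, adjusted p = 0.00378 by edgeR), and it was lost without tumour 4 (adjusted p = 0.0653). Mural wells were lowest, at 2.08, 1.18 and 1.17, with a log2 fold change of -1.71 ± 0.26 against the fibroblast groups (adjusted p = 4.28e-05).

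Hapln1 and Vcan are neighbours. On mm10 with the GENCODE M21 annotation, Hapln1 lies at chr13:89539796-89611652 on the plus strand and Vcan at chr13:89655312-89742509 on the minus strand, so their 3′ ends face each other over 43.7 kb with 0 annotated genes between them. Within the lamina propria wells of tumours 2 to 4, the 34 wells with a Hapln1 UMI had Vcan at 7.09, 8.63 and 7.68 and the 52 wells without one at 6.68, 6.78 and 7.45. Vcan was thus slightly higher beside Hapln1 in each of the 3 tumours. Cd44 went the other way, at 1.56, 0.905 and 0 in wells with Hapln1 and 2.34, 5.99 and 3.59 in wells without. The lamina propria markers did not move together. Edil3 was higher beside Hapln1 in all 3 tumours, at 2.40, 3.26 and 2.83 against 0.945, 1.58 and 1.22, and so was Ppap2b. Edil3 is also the gene most like Hapln1 over the fibroblast sums, which hold these wells. Fgf9 was lower in all 3 tumours, at 0 in each against 0.500, 0.510 and 0.449. The other markers with a row, Adamdec1 and Wnt4 among them, were mixed. Wells with Hapln1 were deeper (median 10334 against 7380 UMIs), and wells within a tumour are not replicates, so these values are given without a test.

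Cemip, whose product is needed for cells to break down hyaluronan, was concentrated in the telocyte wells. Its level there was 2.23, 6.75 and 8.69 in tumours 2, 3 and 4. Contractile wells had the next mean, at 1.23, 0.910 and 0.602, and inflammatory wells overlapped with them, at 0.392, 1.48 and 0.111. Progenitor wells (0.0140 to 0.150), lamina propria wells (0.0406 to 0.114) and wells with no leading list (0.0837 to 0.167) were near the lower end. The telocyte wells overlapped with no other group, and they held 26.5, 68.8 and 78.6% of the fibroblast wells' Cemip UMIs in tumours 2, 3 and 4. The difference was 4.63 ± 0.40 on the log2 scale (adjusted p = 5.55e-08 by edgeR).

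Smaller differences were called for Cemip in 3 further groups, and all of them were fragile. It was higher in contractile wells by 1.68 ± 0.48 (adjusted p = 0.0241 by edgeR), a call lost by DESeq2 (adjusted p = 0.158), with a stricter marker score (0.0841) and without tumour 2 (0.234). In progenitor wells the log2 fold change was -2.51 ± 0.72 (adjusted p = 0.0252), lost without tumour 3 (0.0928) or tumour 4 (0.122). In lamina propria wells it was -2.94 ± 0.87 (adjusted p = 0.0428) from 7 UMIs in tumours 2 to 4. This call was lost without the tumour as a block (adjusted p = 0.0559), at a limit of 15% mitochondrial transcripts (0.0597), with the stricter marker score (0.0566) and without tumour 2 (0.0703) or tumour 3 (0.337).

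**Figure D4:**
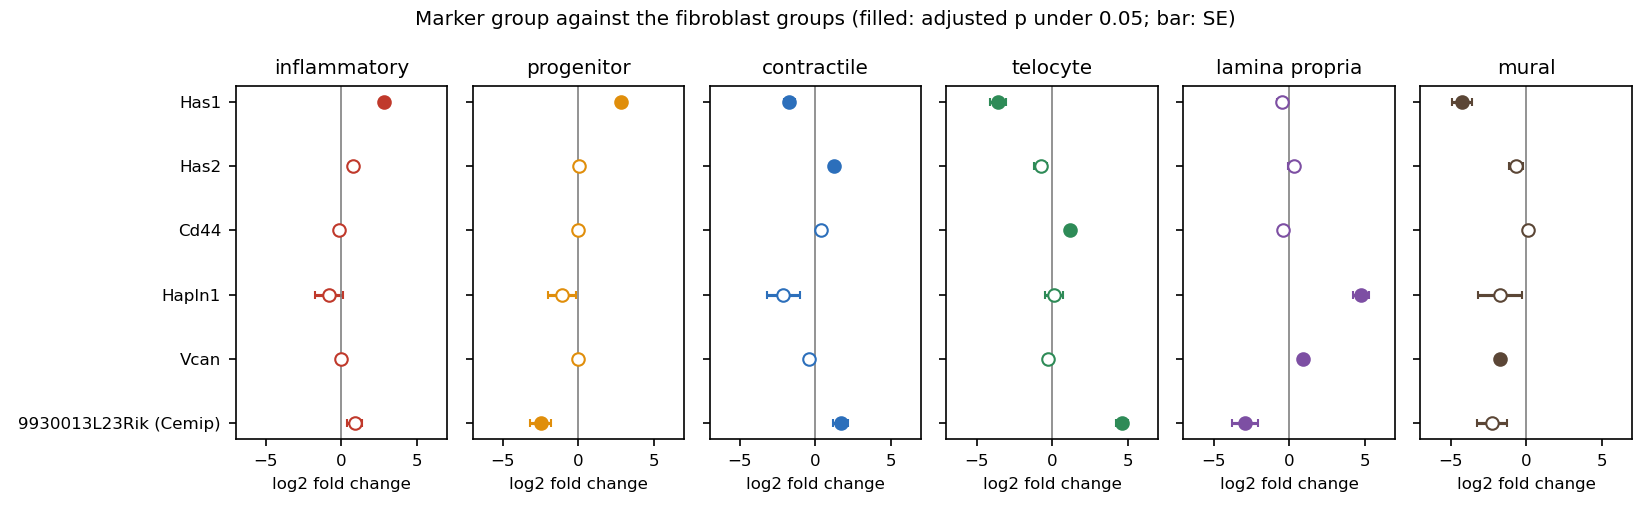
Log2 fold change with its SE (x axis) of the 6 tested members in each marker group against the mean of the other fibroblast groups, and of the mural wells against all fibroblast groups. Filled points passed an adjusted p of 0.05: Has1 at 2.80 and 2.82 and Cemip at 4.63 and Hapln1 at 4.73 were the 4 points above 2.

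Only some telocyte wells carried Cemip: 4 of 18, 9 of 28 and 6 of 13 wells in tumours 2, 3 and 4. These 19 wells are set beside the other 40 for 3 genes outside the marker lists. Il1rl1 and Stc1 had been picked by their likeness to Cemip over sums that hold these wells, so a difference in them was built in. Il1rl1, the receptor of interleukin-33, stood at 34.8, 100.1 and 93.9 in the wells with Cemip and at 1.99, 1.11 and 0.123 in the others. Stc1, a secreted glycoprotein, was at 7.89, 16.2 and 20.4 against 3.84, 0.455 and 0.613. Tmem2, another cell-surface protein that cuts hyaluronan, was at 2.56, 2.14 and 2.14 against 0.925, 0.101 and 0.368. All 3 genes were higher beside Cemip in each tumour.

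Of the 10 telocyte markers, 4 were lower (Foxl1, Sox6, Bmp3 and Dll1) and 2 higher (F3 and Bmp7) beside Cemip in all 3 tumours, and 4 were mixed. Foxl1 was lower by a small margin, at 0.197, 0.498 and 0.356 with Cemip and 0.330, 0.556 and 0.491 without. In the 19 wells with Cemip, Sox6 stood at 0, 0.0711 and 0.237, against 0.595, 1.01 and 1.96 in the other 40, and Bmp3 at 0, 0 and 0.119 against 0.132, 0.404 and 0.613. F3 was higher beside Cemip in all 3 tumours (4.53, 1.49 and 2.14 against 2.64, 0.404 and 0.736). Bmp7 was higher too, at 3.74, 5.98 and 5.10 against 3.44, 4.20 and 2.58. Wnt5a, which was mixed, and Bmp7 were found in at least 94.7% of the wells of both sets. Vcan was lower beside Cemip, at 2.56, 2.64 and 1.78 against 7.09, 4.76 and 2.45, while Cd44 was close, at 6.90, 8.42 and 7.12 against 5.36, 7.09 and 7.98. The wells with Cemip were deeper (median 13285 against 9224 UMIs), and wells are not replicates. Il1rl1 and Stc1 were named by their likeness to Cemip in the same data, so these values are a description.

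Has1 and Cemip were seldom read in the same well. After each fibroblast well was thinned to 3000 UMIs (526 wells; 98 shallower wells left out), 2 of 144 wells with Has1 also had Cemip (1.39%), against 10.5% of the wells without Has1. In tumours 2, 3 and 4 the shares were 2.82, 0 and 0% against 11.3, 13.6 and 7.96%. Without thinning they were 9.29% of 226 wells and 16.1% of the rest, at median depths of 13125 and 6659 UMIs. Cemip was read in 12.7% of thinned wells with Cd44 and 4.38% of those without. The shares were 21.2 against 4.55% in tumour 3 and 11.3 against 2.27% in tumour 4, but close in tumour 2, at 8.42 against 7.32%. Tnfaip6 accompanied Has1 in 77.8% of thinned wells, against 33.2% of wells without Has1, and was more frequent beside Has1 in each of tumours 2 to 4.

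Hyal2, a membrane-anchored hyaluronidase found in most tissues, had no group of its own. Its mean level over tumours 2 to 4 lay between 0.0784 in mural wells and 0.153 in telocyte wells, and every group's range overlapped with every other. The group means rested on 5 to 19 UMIs each, so a difference between groups was not detectable at this depth.

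Of the other genes of hyaluronan metabolism, 59 were listed with the members, 53 had a row and 34 were tested, 28 of them no members. The list was chosen with earlier results of these data known, so the counts and medians below only describe. In inflammatory wells 8 of the 28 were higher and 0 lower, where 4.16% of all genes were called higher and 0.456% lower. In progenitor wells 10 were higher and 1 lower (5.67% and 4.09% of all genes). The median log2 fold change of the 28 was 0.41 and 0.44 in these 2 groups, beside 0.01 and 0.00 over all genes. By role, members included, the higher genes were 3 of 9 for precursor supply, 2 of 13 binders and partners and 3 of 5 proteases in inflammatory wells, and 4, 3 and 3 in progenitor wells. In telocyte wells 2 of the 28 were higher and 10 lower (6.58% and 4.54% of all genes), with a median of -0.64, and in mural wells 4 were higher and 10 lower (7.74% and 6.97%). Each fibroblast group is set against the mean of the others, so these comparisons are not independent. Fbln1 apart, the 10 genes lower in telocyte wells were each called higher in inflammatory or progenitor wells. In contractile wells 3 were higher and 4 lower (6.71% and 5.49%), and 4 became 1 without tumour 2. Lamina propria wells had 0 higher and 3 lower (4.4% and 2.35%), and 3 became 1 without tumour 2 or without tumour 4.

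Of the 9 tested genes that supply the building blocks, Gfpt2, Ugdh and Uap1 were higher in both groups with high Has1. Gfpt2, an enzyme of the first step toward UDP-N-acetylglucosamine, was at 4.46, 4.02 and 5.29 in inflammatory and 4.61, 3.82 and 5.80 in progenitor wells of tumours 2, 3 and 4. It was at 0.198, 0.266 and 0.181 in telocyte wells. The groups with high Has1 did not overlap with the others for this gene, and the log2 fold changes were 2.21 ± 0.15 (adjusted p = 3.23e-09 by edgeR), 2.21 ± 0.15 (9.28e-10) and -3.18 ± 0.27 (4.28e-08). Ugdh, which makes UDP-glucuronic acid, was higher by 1.35 ± 0.15 in inflammatory and 1.51 ± 0.15 in progenitor wells (adjusted p = 4.57e-06 and 3.2e-07) and lower in telocyte wells (-1.76 ± 0.21, adjusted p = 5.23e-06). Uap1, the last enzyme toward UDP-N-acetylglucosamine, was higher by 1.46 ± 0.20 and 1.67 ± 0.20 in the same pair of groups (adjusted p = 5.7e-05 and 3.49e-06). Ugp2, which makes UDP-glucose, was higher in progenitor wells alone of this pair (1.08 ± 0.22, adjusted p = 0.00178; 0.34 ± 0.24, adjusted p = 0.604 in inflammatory wells), and the difference between the pair was not tested. Gfpt1, Gnpnat1, Nagk, Gpi1 and Pgm2 were called in neither group.

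Of the 13 tested binders and partners, Tnfaip6 and Ptx3 were higher in both groups and Fbln2 in progenitor wells (0.76 ± 0.21, adjusted p = 0.0191 by edgeR). The median log2 fold change of the 13 was 0.08 in inflammatory and 0.24 in progenitor wells. Tnfaip6 was at 16.6, 6.11 and 14.6 in inflammatory and 12.5, 8.56 and 9.10 in progenitor wells, against 0.723 to 2.07 in telocyte wells. It was higher by 1.99 ± 0.21 and 1.65 ± 0.21 in the first pair (adjusted p = 2.03e-06 and 1.14e-05 by edgeR). Ptx3, a pentraxin that joins the crosslinked matrix, was higher by 3.87 ± 0.29 in inflammatory wells (6.49, 1.94 and 8.81; adjusted p = 1.87e-08) and by 2.01 ± 0.32 in progenitor wells (3.57, 0.431 and 2.69; adjusted p = 0.000121). For Ptx3 the inflammatory wells were above the progenitor wells in each tumour, unlike for Has1. Of the proteases that cut versican and aggrecan, Adamts5 was highest in progenitor wells at 4.98, 4.38 and 4.02 (2.53 ± 0.17, adjusted p = 9.28e-10). Adamts15 was highest there too, at 1.11, 0.901 and 1.16 (3.08 ± 0.33, adjusted p = 1.15e-06). Both were also called higher in inflammatory wells, by 1.01 ± 0.19 and 1.56 ± 0.39 (adjusted p = 0.00129 and 0.0199 by edgeR). Adamts1 was higher by 1.22 ± 0.22 in inflammatory and 1.30 ± 0.22 in progenitor wells (adjusted p = 0.00107 and 0.000248).

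Of the 5 tested degraders, Cemip and Tmem2 were higher in telocyte and contractile wells and lower in progenitor and lamina propria wells. For Cemip only the telocyte call was stable, and the calls in the other groups were fragile, as given above. Its means in progenitor and lamina propria wells (0.081 and 0.084) were close to those in mural wells (0.089) and wells with no leading list (0.132). Being lower was thus not particular to these groups. Tmem2 stood at 1.34, 0.947 and 1.27 in telocyte wells and 1.13, 0.650 and 1.18 in contractile wells, against 0.137 to 0.256 in progenitor and 0.0486 to 0.190 in lamina propria wells. The ranges of the first pair lay above those of all other fibroblast groups. Tmem2 was higher by 1.58 ± 0.24 in telocyte wells (adjusted p = 7.66e-05 by edgeR) and by 1.44 ± 0.22 in contractile wells (adjusted p = 0.000123). The lysosomal enzymes Hexa and Gusb, which act on hyaluronan fragments, were called in none of the 5 fibroblast comparisons. Acan, a proteoglycan of cartilage that binds hyaluronan, was read as 14 UMIs in contractile wells, 13 in mural wells, 1 in telocyte wells and 0 in the other 4 groups. Its calls in contractile and mural wells (adjusted p = 0.00861 and 0.0057 by edgeR) were lost by DESeq2 (0.610 and 0.604), and no Acan UMI was read in the contractile wells of tumour 2.

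**Figure D5:**
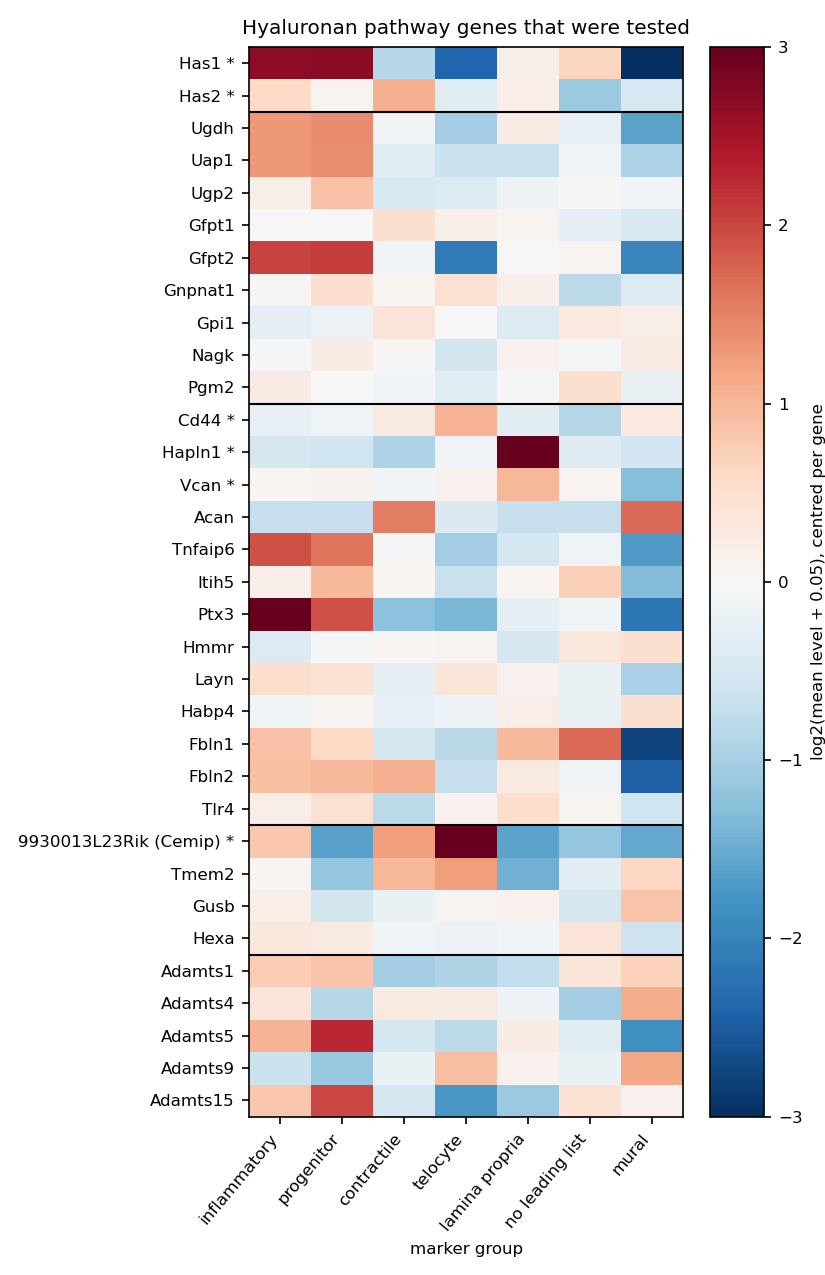
Mean level over tumours 2 to 4 of 33 of the 34 tested genes (rows; members starred) in 7 marker groups, as log2(mean transcripts per 10000 + 0.05) centred for each gene; black lines part makers, precursor supply, binders and partners, degraders, and proteases of versican and aggrecan. Has1, Gfpt2, Ugdh, Uap1, Tnfaip6 and Ptx3 were above their mean in the inflammatory and progenitor columns, and Cemip and Tmem2 in the contractile and telocyte columns. Has1 was also above its mean in the lamina propria and no leading list columns, and Cemip in the inflammatory column.

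The genes most like each member over the 18 fibroblast sums were sought among 7231 others by Pearson's r of log2 levels, centred within tumours. Has1 was most like Gfpt2 (r = 0.96), Ccdc80 (0.93) and Hsd3b7 (0.93). Cemip was most like Il1rl1 (0.93), Stc1 (0.92) and Minos1 (0.90). Hapln1 was most like Edil3 (0.92), which is a marker of the lamina propria list, Enpp3 (0.91) and Galnt2 (0.87). Vcan was most like Zeb2 (0.84), Man2b2 (0.84) and Sh3d19 (0.83), and Hapln1 stood at rank 61 (0.70). Cd44 was most like Emp2 (0.87), Sept11 (0.85) and Dda1 (0.83), and Cemip stood at rank 54 (0.71). Has2 was most like Ssr3 (0.87), Snx2 (0.85) and Creb3l1 (0.83), and the other synthase, Has1, stood only at rank 1992 (0.20). Between Has1 and Cemip r was -0.65. The 18 sums share 3 tumours and depth differences, so these values only describe.

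Tumour 1 differed in these genes from the other 3. Has1 had no row in its file and 0 UMIs among 388451, which allows a level of up to 0.0772 per 10000 for counting error, while tumours 2, 3 and 4 were at 3.38, 1.93 and 3.12. In its 8 progenitor wells alone, 0 of 63669 UMIs allowed up to 0.471, against 7.15, 5.36 and 5.97 UMIs per 10000 in the progenitor wells of the others. Cemip was also at 0, against 0.547, 1.26 and 0.693, and Has2 had 1 UMI. Vcan (2.99 against 3.62 to 4.33) and Cd44 (2.45 against 3.27 to 3.66) were closer to the other tumours, and Hapln1 was higher (0.657 against 0.0865 to 0.272). The synthases and Cemip were thus at or near 0 there, and the binders were not.

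Other genes moved with tumour 1 as well. Tnfaip6 was at 0.278 against 3.85 to 7.95, Gfpt2 at 0.278 against 1.77 to 3.15, and Ptx3 at 0 against 0.462 to 2.67. The 14 inflammatory markers summed to 3.92 against 37.9 to 52.0, with 3 of the 14 at 0, and the 14 stress genes to 39.6 against 119 to 169. The progenitor markers did not go with them, at 27.1 against 19.5 to 30.1, and the lamina propria markers were at 34.5 against 11.6 to 25.7. The 12 fibroblast markers were lower in tumour 1, at 449 against 694 to 761, and the contractile markers higher, at 114 against 64.4 to 76.6. The part of these differences, of the poorer plate and of the separate run in the absence of Has1 was not tested. When the sums of tumour 1 with at least 5 wells were added to the test, the 14 calls of members held. No inflammatory or contractile sum of tumour 1 reached 5 wells, and its other sums held 0 UMIs of Has1 and Cemip. For calls in those groups or of those genes, the added sums therefore could not decide.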

How the data were processed

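Members and gene lists were chosen with earlier results of these data known. Per the labels' protocols, SORT-seq plates with CEL-Seq2 libraries were made. Per the submitters' processing notes, reads went through BWA and mm10; the sources used here name no versions and no counting program. What was deposited is expected counts: whole UMIs per gene and well that the authors corrected for repeated use of the 4096 possible UMIs, which undoing the correction recovered to within 0.00498. They were rounded for the count tests, and whole UMIs were recovered for shares and intervals.

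Wells were kept with at least 1000 transcripts outside spike-ins and at most 30% mitochondrial transcripts; the plates held 612734 to 3165550 transcripts. No doublets were removed, since each well was meant to hold 1 cell. A well's score on a list is the mean over its markers of log2(1 + transcripts per 10000), scaled within the tumour. Wells scoring at least 0.75 on a list of another cell type, with at least 3 of its markers found, left the fibroblasts; the others went to the fibroblast list with the highest score of at least 0.25. Both thresholds were set from the score distributions, without the hyaluronan genes.

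Expected counts were summed per tumour and group (at least 10 wells; 21 sums of tumours 2 to 4) and compared with edgeR 4.0.16 (R 4.3.3; TMM, filterByExpr, glmQLFTest, tumour as a block because the groups come from the same tumours), with Benjamini-Hochberg adjustment over 7232 genes. DESeq2 1.42.0 was an alternative, beside other scaling, filters, score thresholds and leaving out each tumour. Tested on simulated data for the inflammatory comparison (6706 genes), the fit recovered 34.7% of 2-fold and 91.5% of 4-fold changes. Named genes were the 7 members, called genes of the pathway list with at least 20 UMIs, and the 3 genes most correlated with each member of at least 100 UMIs (prior count 2). A tested gene of the pathway list, included in the counts, is not reported here by name.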

Additional observations from a re-analysis of the deposited data

Results flagged for a closer look

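Wells that did not pass the filters were not used above, and UMIs of some members were read in them. They held 13 Has1, 7 Has2, 65 Cd44, 7 Hapln1 and 45 Vcan UMIs in all 4 tumours, each above the limit of 3 that a count of 0 allows. Of the Cd44 UMIs in these wells, 24 came from tumour 1, and of the Has1 UMIs 0 did.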

How the results depend on the processing

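The 14 calls of members were recomputed in 12 ways each (168 values; leaving out tumour 1 changes nothing, since it entered no sum): 154 stayed called, 14 kept their direction and lost the call, and 0 turned. Has1 in inflammatory, progenitor, telocyte and mural wells, Cd44 and Cemip in telocyte wells, Hapln1 in lamina propria wells and Vcan in mural wells stayed called throughout; the lost calls are given beside their results. Of 55 calls of other pathway genes (650 values), 66 values lost the call and 0 turned.

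With no filter on low counts (15834 genes tested), 581 genes were called in inflammatory and 788 in lamina propria wells, against 334 and 488. Leaving out tumour 2, 3 or 4 lowered the count of called genes each time. It gave 138 to 300 for inflammatory wells against 334, and 342 to 520 for progenitor wells against 706. For contractile wells it gave 370 to 862 against 882, for telocyte wells 408 to 604 against 804, and for lamina propria wells 230 to 315 against 488. Without a replicate block the counts were 271, 600, 774, 692, 408 and 995 (mural), each within 1.5 times of the main value, and of the members' calls Cemip in lamina propria wells was lost.

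Of 264 values for 22 differences that were not called, 4 became called and 16 turned, and the cause was not tested. With no filter on low counts Has2 (adjusted p = 0.0212) and Cemip (0.0138) in inflammatory and Cemip in mural wells (0.000193) became called, and with the stricter marker score Hapln1 in contractile wells (0.0482). With the stricter marker score the differences that turned were Vcan in inflammatory (0.069) and progenitor wells (0.15) and Cd44 in progenitor wells (0.071). Without the replicate block Cd44 in progenitor wells turned (0.0092), and with at least 5 wells per sum Hapln1 in progenitor (0.36) and telocyte wells (-0.93). Leaving out 1 tumour at a time, the log2 fold changes in inflammatory wells ranged from -0.38 to 0.10 for Cd44, from -0.23 to 0.18 for Vcan and from -0.36 to 1.37 for Cemip. In progenitor wells they ranged from -0.036 to 0.35 for Has2, from -0.35 to 0.28 for Cd44 and from -0.20 to 0.091 for Vcan. For Hapln1 they ranged from -1.32 to 1.71 in telocyte wells and from -4.66 to 0.19 in mural wells, and for Has2 from -0.54 to 0.62 in lamina propria wells. Depth limits Hyal2 and Hapln1 most, at 98 and 156 UMIs.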
